A study of Mus musculus with 90 samples.

Results

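Double-negative (DN) regulatory T cells (Tregs) and effector T cells (Teff), both labelled naive, were compared by RNA sequencing in 6 of the 90 libraries of this mouse series. The 3 DN libraries carry the population label DoubleNeg and the cell type Treg, and the 3 Teff libraries the population Teff and the cell type effectorTcell. All 6 come from mice labelled WT, from a source named NaiveTcell, and each of 3 batches holds 1 library of each population. In the sample titles Naive stands where those of other Treg groups carry ndLN or TIL, so it need not mean antigen-naive cells. The label does not spell out what the cells were negative for, but the series sorted other Tregs by IL10 and by Ebi3, a subunit of IL-35. Each fraction went through 2 rounds of sorting and was lysed directly for SMART-Seq v4 cDNA and Nextera XT libraries, per the labels' protocols. Neither age, tissue nor the number of pooled mice is in the labels. They do not state either whether each library is a separate animal. The p-values therefore reflect only how the sequenced samples vary, and part of that variation may be technical. The spread behind them was estimated over all 30 libraries of the Treg series, of which these 6 are part.

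Tregs are CD4 T cells that restrain other immune cells, and their identity depends on the transcription factor Foxp3. They carry the high-affinity IL-2 receptor, take up IL-2, make little of it themselves and act through cell contact, adenosine, TGF-beta activation and inhibitory cytokines. Effector or conventional CD4 T cells answer antigen through the T cell receptor and support other cells with cytokines and CD40 ligand.

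Library totals were 11.2 to 15.8 M counts in DN and 9.73 to 14.7 M in Teff, and 11317 to 12153 genes had a count. Between 9.21 and 10.7% of each library's counts fell on its 10 most abundant genes. Across genes, log2 CPM (counts scaled to a common library total) correlated at 0.940 to 0.958 within a group and at 0.914 to 0.933 between groups. The level of 3 counts, below which a gene at 0 may still lie, was 0.190 to 0.308 CPM. Reads carried no molecular identifiers, so such floors cover counting error only. From here on, the 3 values of a group are CPM in batches 1, 2 and 3, and differences are log2 fold changes of DN minus Teff ± their standard error.

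Genes that define the sorts were read first. Foxp3 was at 62.6, 132 and 68.1 CPM in DN and at 29.7, 15.9 and 27.6 CPM in Teff, a difference of 1.64 ± 0.26 (adjusted p = 6.39e-05). The groups did not overlap, yet the Teff libraries held Foxp3 reads in every batch. Il10, the cytokine IL-10, stayed at or below 0.308 CPM in all 6 libraries, against a mean of 97.9 CPM in the naive Tregs labelled IL10. Ebi3 was at 0, 0.711 and 0.129 CPM in DN and 0.409, 0 and 1.29 CPM in Teff, against a mean of 8.34 CPM in the naive Tregs labelled Ebi3. Il12a, the other subunit of IL-35, was at 0 in all 6. Cd4, the co-receptor, was present in all 6 and fell, from 546, 420.4 and 341 CPM in Teff to 204, 284 and 244 CPM in DN (-0.82 ± 0.14, adjusted p = 1.71e-04). Cd8a was at 0 in 5 libraries and at 2.07 CPM in DN batch 3.

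2 libraries stood apart before any comparison. Teff batch 2 held mitotic genes at levels near those of DN, whereas Teff batches 1 and 3 had almost none. DN batch 3 held MHC class II genes and single B cell and myeloid genes that DN batches 1 and 2 had only at low levels or not at all. Counts of genes that passed in those lists are given with and without these libraries.

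Across the transcriptome 12907 genes passed the filter on low counts, and 1575 of them, 12.2%, had an adjusted p of at most 0.05. A gene is said to have risen or fallen in DN only where it passed. Of all genes tested 8.79% rose (1134 genes) and 3.42% fell (441 genes), and the median difference over all of them was 0.03. These shares are the background for the counts of every gene list below. The falls numbered 264 without DN batch 1, 169 with only the 6 libraries fitted and 152 with 30 libraries and no replicate block; the rises numbered 269 and 705 in the last 2 fits. Among called genes the rises were larger than the falls, with medians of 1.52 and -0.81. By at least 4-fold, 462 genes rose and 49 fell. Another 41 genes of at least 10 CPM differed at least 4-fold without overlap but did not pass, 31 lower and 10 higher in DN. Of the calls with only the 6 libraries fitted 61.4% were higher, against 72% here. Reads were absent from all 3 Teff libraries for 106 of the genes that rose, and from all 3 DN libraries for 13 of those that fell. The share of such genes among all tested was not taken. The filter used all 30 libraries, so genes without reads in Teff could pass it on Treg libraries alone. The groups did not overlap in CPM for 17.4% of the genes tested, and for 1132 of the 1575 called. Each called gene was also tested with 1 of the 6 libraries left out in turn, and where a named gene missed the threshold in any of these 6 fits, that is said beside it. In bulk RNA of this kind fewer cells of a type and less RNA per cell cannot be told apart.

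**Figure D1:**
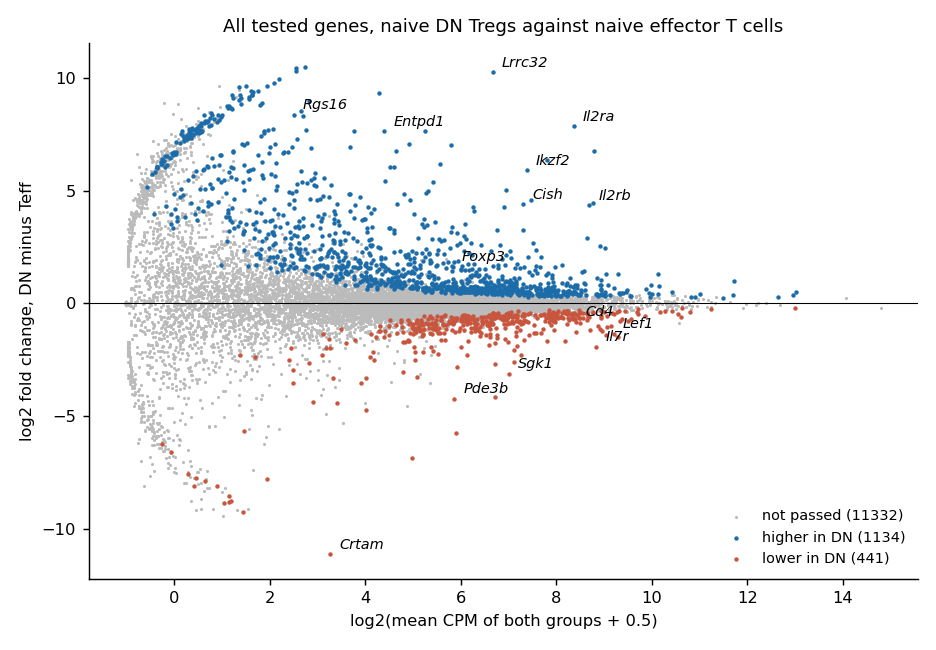
Log2 fold change (DN minus Teff) of each tested gene against the log2 mean CPM of both groups plus 0.5. Blue points passed and were higher in DN (1134), red points passed and were lower (441), grey points did not pass (11332). Among points that passed, differences of at least 4-fold are more often rises (462) than falls (49).

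The Treg signature, 20 genes known from work on Tregs, rose in all 20 cases (18 with only the 6 libraries fitted), with a median difference of 4.22 against 0.03 over all genes. For every one of them the 3 DN libraries lay above the 3 Teff libraries. The list was written with earlier results of these data known and is not independent evidence of its direction. Il2ra, the alpha chain that gives the IL-2 receptor its high affinity, was at 564, 689.98 and 718 CPM in DN and 5.66, 1.54 and 1.22 CPM in Teff (7.85 ± 0.34, adjusted p = 3.88e-14). Il2rb, the signalling chain shared with the IL-15 receptor, had the smallest p of all genes. It was at 591, 1034 and 734 CPM against 30.7, 47.2 and 38.2 CPM (4.36 ± 0.12, adjusted p = 1.40e-19), and the differences within batches 1, 2 and 3 were 4.25, 4.44 and 4.25. Lrrc32, or GARP, holds latent TGF-beta on the Treg surface. It was at 130.5, 285 and 190.1 CPM in DN, while Teff held 0.0682, 0.206 and 0.204 CPM, the counts of 1 to 3 reads (10.24 ± 0.40, adjusted p = 2.66e-16).

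The Ikaros family members Ikzf2 (Helios) and Ikzf4 (Eos), both partners of the Foxp3 programme, rose by 5.89 ± 0.22 and 3.51 ± 0.39. Ikzf2 was at 319, 289 and 370.4 CPM in DN and at 9.48, 4.11 and 3.05 CPM in Teff, and the groups lay far apart in every batch. Ctla4, the receptor that competes for CD80 and CD86, was at 305, 349.8 and 369.99 CPM against 13.4, 22.8 and 8.42 CPM (4.59 ± 0.21, adjusted p = 1.64e-14). Among the TNF receptors of the signature Tnfrsf4 (OX40) rose by 4.43 ± 0.19, Tnfrsf9 (4-1BB) by 3.23 ± 0.26 and Tnfrsf18 (GITR) by 2.56 ± 0.11. Tnfrsf18 and Folr4 (folate receptor 4) were well above 0 in Teff too, at 119, 157 and 150.02 and 179.7, 165 and 149 CPM, and rose the least of the surface markers in the list. Socs2, a suppressor of cytokine signalling, was at 122, 115 and 91.5 CPM against 0.136, 0.411 and 1.97 CPM (7.0 ± 0.43, adjusted p = 8.14e-12). Foxp3 itself had the smallest difference of the 20. Plagl1, a zinc finger factor, rose on 2 libraries: it was at 13.8, 0.445 and 11.8 CPM in DN, where batch 2 was close to the Teff values of 0.205, 0 and 0 CPM, with 3 reads in Teff in all. The ratio of the DN to the Teff reads, each summed over 3 libraries and divided by their total, was 125 (42.3 to 606), with the exact 95% binomial interval in parentheses as for each such ratio (adjusted p = 0.00185).

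**Figure D2:**
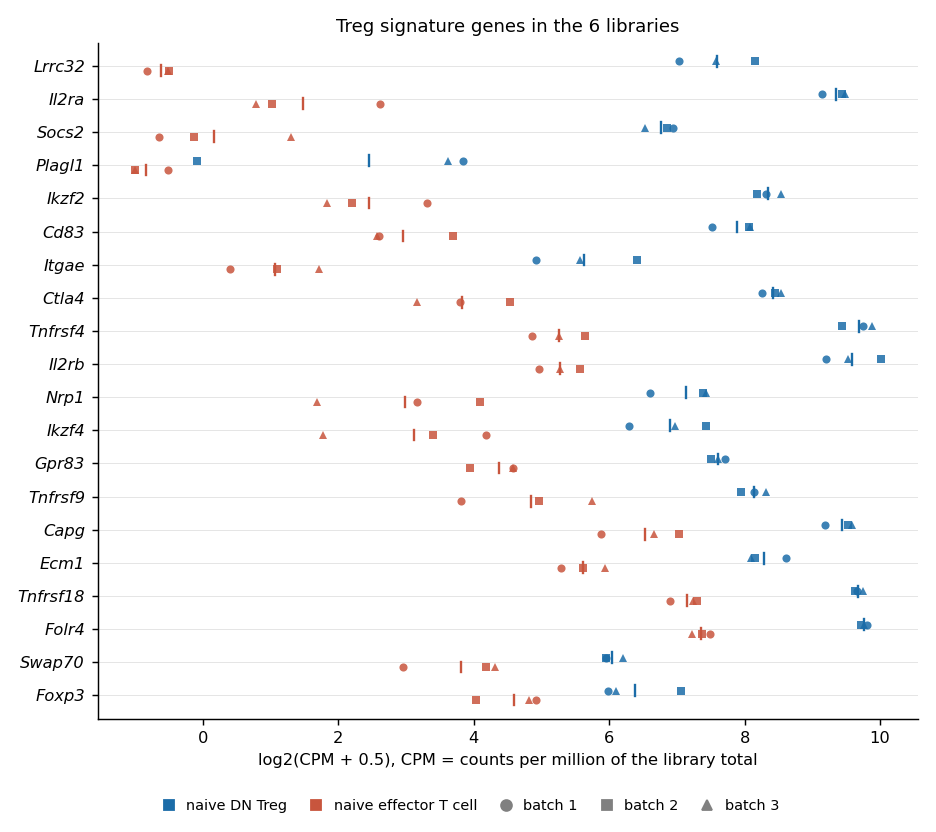
Level of each Treg signature gene, as log2(CPM + 0.5), in the 3 DN (blue) and 3 Teff (red) libraries, with the marker showing the batch and the bar the mean of the log2 values. All 20 genes separate the groups; Lrrc32 and Il2ra lie farthest apart, Foxp3 and Swap70 closest.

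Of 15 tested genes known to be lower in Tregs than in conventional T cells 10 fell, 1 rose and 4 did not pass (median -1.41). With only the 6 libraries fitted 11 fell and 0 rose. Il21 was filtered out. Pde3b, a phosphodiesterase that breaks down cyclic AMP, was at 8.98, 4.98 and 4.59 CPM in DN and 84.2, 127 and 117 CPM in Teff (-4.23 ± 0.72, adjusted p = 1.39e-04). Il7r, the IL-7 receptor alpha chain, was at 143, 215 and 206 CPM against 567, 777 and 832 CPM (-1.92 ± 0.38, adjusted p = 0.00156). Tcf7 (TCF1) and Lef1, the paired HMG-box factors of resting T cells, fell by similar amounts, at -1.42 ± 0.32 and -1.34 ± 0.13. Lef1 was at 315, 379 and 294 CPM in DN and 845, 867 and 826 CPM in Teff. Satb1, a chromatin organiser, fell (-1.18 ± 0.21), as did Cd40lg, the ligand by which helper cells activate B cells (-1.60 ± 0.23), and Dapl1 (-2.70 ± 0.66). Actn1, a crosslinker of actin, fell too (passed in 4 of 6 fits, adjusted p up to 0.0620 without DN batch 2), and so did Atp1b1, a sodium pump subunit (passed in 1 of 6 fits, adjusted p up to 0.101 without DN batch 1).

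Crtam, an adhesion receptor of activated T cells, had the largest fall among genes with a mean of at least 10 CPM in the higher group. It showed no read in any DN library and 17.8, 18.6 and 18.3 CPM in Teff, at least 258-fold lower against a floor of 3 counts over the group (adjusted p = 0.0143). The call had an adjusted p of 0.058 without DN batch 1 and 0.057 without DN batch 3. Igfbp4 was lower in all 3 DN libraries, at 255, 467 and 235 CPM against 1185, 975 and 552 CPM, yet did not pass (-1.44 ± 0.57, adjusted p = 0.111), although it passed with only the 6 libraries fitted (adjusted p = 0.00984). Ifng, the Th1 cytokine, went against the name of its list: it was at 7.9, 1.07 and 5.89 CPM in DN and 0, 0 and 0.204 CPM in Teff. With 3 counts in Teff in all, the ratio was 69.9 (23.6 to 342) with an adjusted p of 1.61e-05. Il2, the growth factor of T cells, was at 0, 0 and 3.49 CPM in DN and 1.23, 1.23 and 0.611 CPM in Teff and did not pass (adjusted p = 0.987); 1 DN library lay above all others and the groups overlapped.

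Beyond the lists, the 15 genes of that level with the largest falls held several enzymes and surface molecules. Sgk1, a salt- and insulin-responsive kinase, was at 21.1, 34 and 24.1 CPM in DN and 231, 218 and 238 CPM in Teff (-3.12 ± 0.31, adjusted p = 2.72e-08). The 2 groups did not overlap. Pdlim4, an actin-linked LIM protein, was at 3.6, 1.24 and 1.55 CPM against 116, 132 and 103 CPM (-5.73 ± 1.39, adjusted p = 0.0119, passed in 4 of 6 fits, adjusted p up to 0.0593 without DN batch 2). Vipr1, the receptor of vasoactive intestinal peptide, was at 10.7, 14.3 and 16.4 CPM against 139.9, 101 and 77.2 CPM (-2.83 ± 0.67, adjusted p = 0.00500). Cyp2s1, a cytochrome P450, fell by 3.30 ± 0.51 on the log2 scale. Ggt5, of the gamma-glutamyl transferase family, was at 0, 1.24 and 1.1 CPM against 62.2, 59.4 and 62.9 CPM (-6.87 ± 2.00, adjusted p = 0.0274).

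Several of these falls were clear in CPM but close to the threshold. Ggt5, Nacc2, Rnf32, Epas1, Nme4, Slc16a5, Cd200r3 and Hs3st3b1 passed with all libraries at adjusted p of 0.0206 to 0.0483, and each missed it in 3 to 6 of the 6 fits that left out 1 library, with the highest adjusted p at 0.168 (Hs3st3b1 without DN batch 1). Slc16a5, a monocarboxylate transporter, was at 9.86, 18.9 and 4.4 CPM in DN and 155, 289 and 149.9 CPM in Teff (-4.17 ± 1.22), and passed in none of those fits (adjusted p up to 0.109, without DN batch 3). Epas1, the hypoxia factor HIF-2alpha, was at 0.632, 0 and 1.36 CPM against 18.9, 13.8 and 7.13 CPM (-4.35 ± 1.39). The smallest p values among the falls belonged to abundant genes. Mettl9, a methyltransferase, was at 22.9, 23.3 and 23 CPM against 127, 101 and 122 CPM (-2.30 ± 0.20, adjusted p = 1.92e-09), Sepp1, the selenium carrier selenoprotein P, fell by 1.5 ± 0.13 and Smap2, an Arf GTPase-activating protein, by 1.71 ± 0.18.

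**Figure D3:**
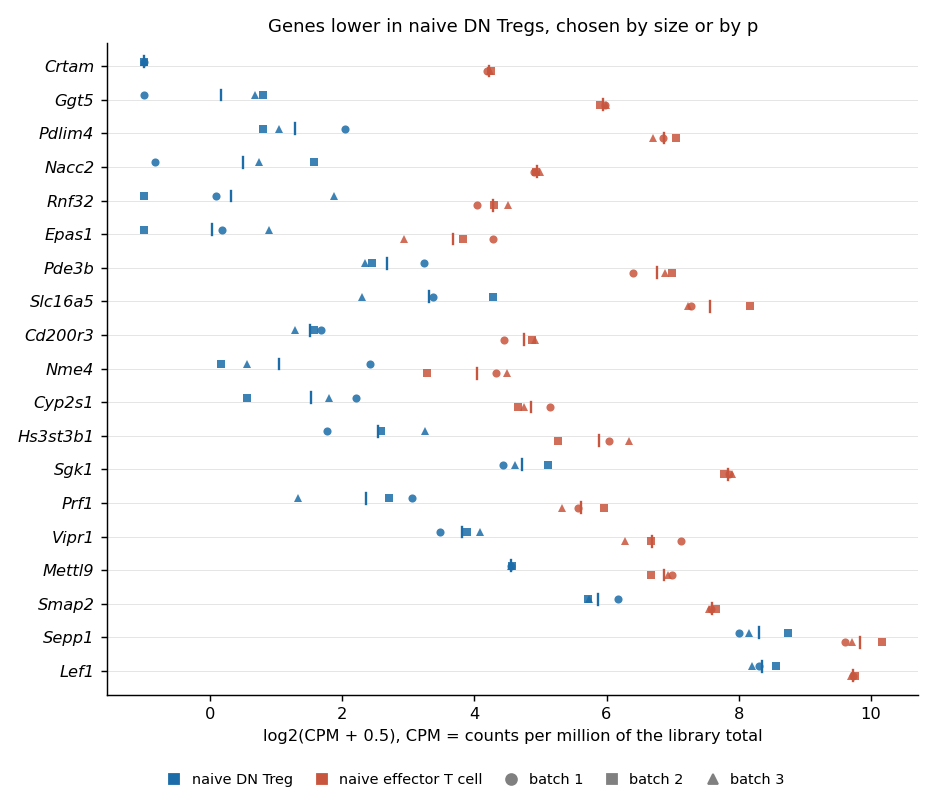
Level, as log2(CPM + 0.5), of the 19 genes named for the largest falls or the smallest p among the falls, in the 3 DN (blue) and 3 Teff (red) libraries, with the batch as marker and the mean of the log2 values as bar. No gene has overlapping groups; Crtam is at the floor in all 3 DN libraries.

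Among the 15 largest rises of genes with a mean of at least 10 CPM in the higher group only Lrrc32 and Il2ra belong to the Treg signature. Pla2g4f, a cytosolic phospholipase A2, was at 7.4, 11.4 and 18.4 CPM in DN and had no read in Teff, at least 163-fold higher (adjusted p = 1.29e-04). It belongs to a cluster of related genes whose reads may not be separable. Fsd1l and Gbp1, a guanylate-binding GTPase with near-identical relatives, were also without a read in Teff, at 17.1, 5.78 and 9.19 and 13.3, 7.82 and 11 CPM in DN. They were at least 147-fold and 144-fold higher (adjusted p = 0.00161 and 0.0134); for Gbp1 the p was 0.061 without Teff batch 1. Arhgap20, a GTPase-activating protein, was at 6.51, 18.8 and 14 CPM in DN and held 1 read in Teff, a ratio of 489.5 (87.5 to 19372). Rgs16, a brake on G protein-coupled chemokine receptors, was at 7.52, 2.4 and 20.9 CPM in DN and also held 1 read in Teff, a ratio of 432 (77.1 to 17082). DN batch 2 was the lowest of the 3 for Rgs16 and still lay above Teff.

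Sdc4, the heparan sulfate proteoglycan syndecan-4, was even across DN at 25.2, 23.3 and 29.2 CPM against 0.136, 0.103 and 0.136 CPM (7.66 ± 0.52, adjusted p = 4.02e-11). Pdzk1ip1, a small membrane protein, was at 17.8, 7.73 and 9.12 CPM with 1 read in Teff, a ratio of 468 (83.7 to 18536). Cdc6, a replication licensing factor, was at 10.5, 21.6 and 5.31 CPM, Dnahc7a, a dynein heavy chain with close copies, at 24.3, 42 and 48 CPM, and Myadm at 2.09, 24.9 and 5.37 CPM. Each of them held 2 reads in Teff, so their ratios of 226 (62.2 to 1871), 735 (203 to 6076) and 182 (50.1 to 1509.7) have wide counting intervals. All 15 genes had DN values above Teff in every batch, which the rule for naming them required.

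Suppressive mediators moved mostly upward: 10 of 17 tested members rose, 1 fell and 6 did not pass (median 1.35; 5 and 1 with only the 6 libraries fitted). The ectoenzymes that turn extracellular ATP into adenosine rose together. Entpd1 (CD39), which removes phosphates from ATP, was at 40.5, 39.7 and 43 CPM in DN and 0.205, 0.103 and 0.272 CPM in Teff (7.64 ± 0.29, adjusted p = 1.44e-16). Nt5e (CD73), which finishes the conversion, was at 191, 257 and 232 CPM against 12.1, 8.94 and 14.8 CPM (4.26 ± 0.24, adjusted p = 1.35e-12). Both were even across batches, and the groups did not overlap. Itgb8, the integrin chain that frees active TGF-beta from its latent form, had no read in Teff and 4.24, 6.67 and 4.53 CPM in DN, at least 65-fold higher (adjusted p = 2.57e-09). Its partner Itgav rose less, at 1.35 ± 0.32, with DN batch 1 at the level of Teff (17.4, 42.2 and 41.5 CPM against 17.5, 12.7 and 10.3 CPM; passed in 5 of 6 fits, adjusted p up to 0.0577 without DN batch 2).

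Il1r2, the decoy receptor of IL-1, was at 75.9, 42.2 and 58.8 CPM against 0.409, 0.308 and 0.611 CPM (7.08 ± 0.55, adjusted p = 4.85e-09). Penk, the enkephalin precursor, differed between batches: it was at 6.83, 79.7 and 138 CPM in DN and 0.205, 0.308 and 0.543 CPM in Teff (7.62 ± 0.99, adjusted p = 1.71e-05). Every DN value lay above Teff, but DN batch 1 lay far below the other two. Fgl2, a secreted fibrinogen-like suppressor, Lag3, an MHC class II receptor, and Areg, the growth factor amphiregulin, were low but higher in each DN library, with differences of 3.66 ± 0.32, 3.46 ± 0.67 and 5.02 ± 1.03. Lgals1 (galectin-1) rose by 1.35 ± 0.25. Prf1, the pore protein of cytotoxic granules, was the member that fell, at 7.78, 6.05 and 2.01 CPM in DN and 46.9, 61.9 and 39.4 CPM in Teff (-3.04 ± 0.62, adjusted p = 0.00115). Tgfb1 was at 6.7, 3.56 and 2.33 CPM against 1.57, 2.26 and 1.7 CPM and did not pass (1.20 ± 0.74, adjusted p = 0.331).

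In the TGF-beta pathway list, which holds ligands and their processing proteins besides receptors and signal carriers, 4 of 17 tested genes rose and 1 fell (median -0.10). With only the 6 libraries fitted 3 rose and 2 fell. The 2 kinase chains of the receptor moved in opposite directions. Tgfbr1, the type I chain, was at 105, 132 and 167 CPM in DN and 51.3, 40.8 and 49.96 CPM in Teff (1.52 ± 0.18, adjusted p = 6.18e-07). Tgfbr2, the type II chain that binds the ligand, was at 154, 170.4 and 123 CPM against 382, 387 and 263 CPM (-1.17 ± 0.18, adjusted p = 2.51e-05). Neither gene had overlapping groups. The co-repressors Tgif1 and Skil rose by 1.78 ± 0.22 and 0.73 ± 0.14. Furin, a protease that matures TGF-beta, rose on 1 library: it was at 2.59, 14 and 2.65 CPM in DN and 2.18, 1.03 and 1.22 CPM in Teff (passed in 2 of 6 fits, adjusted p up to 0.411 without DN batch 2). Smad2, Smad3, Smad4 and Smad7, the signal carriers and their inhibitor, did not pass, with differences between -0.19 and -0.08.

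Cytokines of the common gamma chain signal through JAK1, JAK3 and STAT5, and STAT5 induces its own inhibitors. Of 16 genes in this list, which leaves out the IL-2 receptor chains of the signature, 4 rose, 3 fell and 9 did not pass (median 0.18; 2 and 0 with only the 6 libraries fitted). None fell without DN batch 1, and 1 without DN batch 2. The genes that rose included 2 inhibitors. Cish was at 228, 382 and 289 CPM in DN and 12.4, 20.6 and 11.3 CPM in Teff (4.40 ± 0.19, adjusted p = 1.55e-15), and Socs1 was at 170.1, 125 and 195 CPM against 30.2, 24.7 and 45.1 CPM (2.34 ± 0.17, adjusted p = 1.14e-10). With Socs2 of the signature, these 3 SOCS family genes did not overlap between groups. Socs3 was not among them: it was at 17.1, 54.9 and 36.3 CPM against 31.2, 21.2 and 23.7 CPM (0.45 ± 0.39, adjusted p = 0.524). Pim1, a kinase induced by STAT5, rose by 1.68 ± 0.44 (passed in 4 of 6 fits, adjusted p up to 0.0599 without Teff batch 2), and Il9r, the IL-9 receptor, by 4.05 ± 0.74.

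Il4ra and Il21r, receptors for other cytokines of the family, fell, unlike Il9r. Il4ra was at 69.7, 139.8 and 116 CPM in DN and 249, 212 and 107 CPM in Teff (-0.81 ± 0.25, adjusted p = 0.0337), and Il21r at 76.4, 122 and 117 CPM against 228, 237 and 135 CPM (-0.90 ± 0.26, adjusted p = 0.0224). Both calls depended on single libraries: Il4ra passed in 3 of 6 fits, adjusted p up to 0.410 without Teff batch 1, and Il21r passed in 3 of 6 fits, adjusted p up to 0.216 without Teff batch 1. Without DN batch 1 none of the 3 falls in the list passed. Il2rg, the common chain itself, was at 2669, 2053 and 2626 CPM against 1954, 2537 and 2678 CPM and did not pass (0.06 ± 0.10). Jak1 fell by 0.38 ± 0.10 (passed in 4 of 6 fits, adjusted p up to 0.0650 without DN batch 1), while Jak3, Stat5a and Stat5b did not pass.

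Among the 20 lists of gene function falls outnumbered rises in the genes known as lower in Tregs and in T cell receptor signalling: 12 of 32 signalling members fell, 3 rose and 17 did not pass (median -0.12). The share that rose, 3 of 32, was close to the 8.79% of all genes. Themis, an adaptor that tunes receptor signals, was at 51.6, 83.2 and 44.5 CPM in DN and 173, 231 and 281 CPM in Teff (-1.88 ± 0.25, adjusted p = 3.73e-06). Pag1, which anchors the inhibitory kinase Csk, fell by 1.19 ± 0.22, and its groups did not overlap. Plcg1 and Malt1, which act on the way to calcium and NF-kB, fell by 1.10 ± 0.27 and 0.92 ± 0.19; Plcg1 passed in 4 of 6 fits, adjusted p up to 0.0740 without DN batch 1.

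For Plcg1 the groups overlapped in CPM across batches, since batch 2 was high in both populations: Plcg1 was at 19.5, 92.6 and 39.5 CPM in DN and 84.8, 142 and 64 CPM in Teff. Within each batch DN was lower. The receptor chains moved little. Cd3e fell by 0.23 ± 0.07 (passed in 1 of 6 fits, adjusted p up to 0.179 without Teff batch 2), whereas Cd3d, Cd3g and Cd247 did not pass, and neither did Zap70, Lat or Fyn. Lck, the kinase that starts the cascade, fell by 0.25 ± 0.07 (passed in 3 of 6 fits, adjusted p up to 0.201 without Teff batch 2). Members that rose were the adaptor Lcp2, or SLP-76 (0.41 ± 0.09), the phosphatase Ubash3b (0.86 ± 0.18) and the diacylglycerol kinase Dgkz (0.48 ± 0.16; passed in 2 of 6 fits, adjusted p up to 0.237 without DN batch 2), while its relative Dgka fell by 0.62 ± 0.09. Falls in this list numbered 7 without DN batch 3 and 6 with only the 6 libraries fitted, where no member rose.

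Immediate early genes and their feedback regulators, which report recent signals, were mixed: 7 of 30 rose (23.3%), 2 fell (6.67%) and 21 did not pass. The same shares over all genes were 8.79% and 3.42%. The median was 0.39, and 5 rose and 1 fell with only the 6 libraries fitted. The falls depended on single libraries: none fell without DN batch 1 or without Teff batch 2, 1 without DN batch 2 or Teff batch 1, and 3 without DN batch 3 or Teff batch 3. Dusp14, a phosphatase of MAP kinases, had no read in Teff and 13.8, 5.87 and 4.59 CPM in DN, at least 109-fold higher (adjusted p = 1.97e-07). Dusp4, of the same family, was at 7.27, 19.3 and 11.1 CPM against 0.818, 0 and 0 CPM (5.35 ± 0.61, adjusted p = 3.64e-07). Spry1, an inhibitor of the Ras pathway, rose by 3.70 ± 0.64, and Nr4a2, an orphan receptor, was at 3.92, 14.8 and 2.26 CPM with 2 reads in Teff, a ratio of 121 (33.2 to 1004) with an adjusted p of 0.00121. Egr2 was at 32.1, 28 and 90.5 CPM against 16, 7.5 and 18.3 CPM (1.84 ± 0.51, adjusted p = 0.0172) and passed in 4 of 6 fits, adjusted p up to 0.182 without DN batch 3. Myc rose by 0.79 ± 0.17. Nr4a1 (Nur77), a reporter of antigen receptor signals, was higher in each DN library, at 88.6, 77.3 and 99.97 CPM against 44, 41.9 and 48.3 CPM, but did not pass (1.03 ± 0.36, adjusted p = 0.0683). It passed with only the 6 libraries fitted (adjusted p = 0.0267), and also without DN batch 2 or Teff batch 3. Fos and Jun followed the batch rather than the population: Fos was at 127, 178 and 7.12 CPM in DN and 88, 254 and 4.28 CPM in Teff, low in batch 3 of both.

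TNF receptors and the NF-kB pathway, outside the signature, rose in 12 of 28 tested members and fell in 1 (median 0.50; 7 and 0 with only the 6 libraries fitted; none fell without Teff batch 1). The 2 receptors of TNF went apart. Tnfrsf1b (TNFR2), the receptor through which TNF sustains Tregs, was at 79.97, 141 and 105 CPM in DN and 33.2, 31.2 and 32.2 CPM in Teff (1.73 ± 0.16, adjusted p = 7.75e-09). Tnfrsf1a (TNFR1), which carries a death domain, was at 33.4, 47.7 and 32.4 CPM against 83.2, 69 and 54.6 CPM (-0.89 ± 0.22, adjusted p = 0.00710; passed in 5 of 6 fits, adjusted p up to 0.120 without Teff batch 1). Tnfrsf8 (CD30) was low, at 1.01, 2.04 and 2.2 CPM in DN and no read in Teff, at least 22.4-fold higher (adjusted p = 3.17e-05). Fas rose by 0.95 ± 0.18. Of the factors and their inhibitors Nfkb1 (0.73 ± 0.16), Nfkbiz (1.10 ± 0.18), Nfkbia (0.61 ± 0.18; passed in 3 of 6 fits, adjusted p up to 0.142 without Teff batch 1) and Bcl3 (0.96 ± 0.21) rose, and so did Rel (c-Rel, 1.41 ± 0.34; passed in 5 of 6 fits, adjusted p up to 0.0527 without Teff batch 1) of the list of transcription regulators, while Rela, Relb and Nfkb2 did not pass.

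Genes that NF-kB is known to induce were among the rises. Icam1, an adhesion ligand, was at 72.1, 99.5 and 75.2 CPM in DN and 23.7, 9.46 and 19.96 CPM in Teff (2.17 ± 0.25, adjusted p = 3.71e-07), and Traf1 was at 162, 279.5 and 169.98 CPM against 95.8, 112 and 70.5 CPM (1.14 ± 0.13, adjusted p = 1.99e-07). Tnfaip3 (A20), another such gene, did not pass (-0.04 ± 0.25, adjusted p = 0.973). Of the 12 ligands of the TNF family 3 rose and none fell (median 1.49; 2 and 0 with only the 6 libraries fitted). Lta (lymphotoxin alpha) was at 315, 269 and 366 CPM in DN and 70.6, 64.4 and 52.3 CPM in Teff (2.36 ± 0.25, adjusted p = 8.96e-08), Tnfsf14 (LIGHT) rose by 3.64 ± 0.79 and Tnfsf9 by 2.02 ± 0.37. Tnf itself was at 60.1, 99.9 and 133 CPM against 51.8, 67.6 and 34.1 CPM and did not pass (0.96 ± 0.33, adjusted p = 0.0583). Without DN batch 1 it passed. Rises in the ligands numbered 5 without DN batch 1, and also without DN batch 3, and 1 fell without Teff batch 1.

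Promoter sequences of genes that rose are shown because a loose pattern for the NF-kB site lies in them, the letters GGGA and CC with any 4 bases between. A match to it need not be a form of that site. Forms of the site with other letters were not searched for and stay unmarked. Windows of 250 bases before to 50 bases after the most upstream start were taken from RefSeq (GRCm38.p6, the same build as mm10), and 10332 of the 12907 tested genes matched one. Both strands were searched. The letters occurred in 25.8% of all windows, in 28.75% of those of the genes that rose and in 28.9% of those of the genes that fell. So they were about as frequent in the falls as in the rises, and no difference between the sets was tested. The 4 windows below are those of 3 of the largest rises and of Nfkbia, the inhibitor that NF-kB induces against itself, chosen after the matches were seen. Each is the 250 bases before the start, read along the gene, in lower case with the matched letters in capitals, and no GENCODE exon lies in any of them.
Il2ra, chr2:11642542-11642791, plus strand: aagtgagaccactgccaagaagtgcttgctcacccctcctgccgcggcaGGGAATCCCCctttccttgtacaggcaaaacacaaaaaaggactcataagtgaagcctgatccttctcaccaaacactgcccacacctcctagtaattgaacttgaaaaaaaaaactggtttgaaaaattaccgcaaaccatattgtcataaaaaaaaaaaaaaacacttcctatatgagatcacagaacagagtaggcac
Sdc4, chr2:164443189-164443438, minus strand: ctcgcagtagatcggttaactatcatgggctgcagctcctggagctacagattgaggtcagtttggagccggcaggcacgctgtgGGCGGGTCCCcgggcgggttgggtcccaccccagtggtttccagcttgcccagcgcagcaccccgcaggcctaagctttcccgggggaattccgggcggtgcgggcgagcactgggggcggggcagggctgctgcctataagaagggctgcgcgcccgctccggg
Pdzk1ip1, chr4:115088458-115088707, plus strand: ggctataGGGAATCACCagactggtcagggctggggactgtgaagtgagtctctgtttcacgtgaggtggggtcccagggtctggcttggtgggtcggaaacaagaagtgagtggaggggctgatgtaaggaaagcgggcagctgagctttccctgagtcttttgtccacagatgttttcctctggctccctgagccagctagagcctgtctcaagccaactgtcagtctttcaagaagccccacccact
Nfkbia, chr12:55492648-55492897, minus strand: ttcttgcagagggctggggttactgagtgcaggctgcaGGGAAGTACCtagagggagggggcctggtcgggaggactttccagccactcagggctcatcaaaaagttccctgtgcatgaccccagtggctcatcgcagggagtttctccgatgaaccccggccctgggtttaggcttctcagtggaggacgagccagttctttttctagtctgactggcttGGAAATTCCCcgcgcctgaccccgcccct
The match in Il2ra starts 201 bases before the start of transcription, that in Sdc4, read on the other strand, 165 bases, and that in Pdzk1ip1 243 bases. Nfkbia holds 2 matches, at 212 and at 29 bases before the start. Il2ra had one of the largest rises in the data, whereas Nfkbia, at 503, 422 and 482 CPM against 304, 321 and 309.8 CPM, rose by less than 2-fold. A match is a run of letters and not a measured binding site.

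Inhibitory and costimulatory receptors rose in 13 of 21 cases and fell in 1 (median 0.98; 9 and 0 with only the 6 libraries fitted). Pdcd1 (PD-1) was at 75.2, 93.8 and 105 CPM in DN and 13.7, 17.6 and 19.3 CPM in Teff (2.47 ± 0.13, adjusted p = 2.61e-13). Tigit, which competes with Cd226 for the same ligands, was at 36.7, 41.7 and 103 CPM against 7.7, 2.36 and 1.09 CPM (3.98 ± 0.44, adjusted p = 1.35e-06), and Cd226 did not pass (-0.39 ± 0.21). Both members of another pair, Icos and Cd28, had reads in all libraries. Icos rose by 1.13 ± 0.14, while Cd28 was the member that fell, by 0.32 ± 0.09, and passed in 2 of 6 fits, adjusted p up to 0.137 without DN batch 1. Cd80 and Cd86, the ligands that Ctla4 binds, were also higher. Cd86 was at 68.7, 97.3 and 149 CPM in DN and 31, 43.3 and 38.3 CPM in Teff (1.47 ± 0.26, adjusted p = 1.79e-04), and Cd80 at 1.07, 0.622 and 2.85 CPM with no read in Teff, at least 20.9-fold higher (adjusted p = 0.00107). Cd274 (PD-L1) rose by 0.98 ± 0.18.

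The SLAM family members Slamf1 and Slamf6 rose by 1.72 ± 0.14 and 0.81 ± 0.15, and Cd200 by 2.30 ± 0.22. Klrg1, a marker of differentiated cells, was uneven across DN at 0.316, 10.9 and 18.1 CPM, with 0.0682, 0.103 and 0.679 CPM in Teff (4.88 ± 1.23, adjusted p = 0.0118). Its groups overlapped, and without DN batch 3 its adjusted p was 0.0601. Havcr2 (TIM-3) was at or below 0.272 CPM in all 6 libraries, so a difference was not detectable at this depth.

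Homing receptors and integrins rose in 8 of 30 cases (26.7%) and fell in 1 (3.33%), against 8.79% and 3.42% of all genes. The median was 0.33, and 2 rose and 2 fell with only the 6 libraries fitted. Falls numbered 3 without DN batch 2, and also without Teff batch 2. Ccr6, a receptor of effector and Th17-type cells, was at 35.7, 61.2 and 123 CPM in DN and 3.55, 4.52 and 0 CPM in Teff (4.89 ± 0.67, adjusted p = 2.66e-05). Ccr8, a receptor known from activated Tregs, was at 123, 96.3 and 145 CPM against 34.9, 23 and 25.7 CPM (2.14 ± 0.30, adjusted p = 2.57e-05), and Ccr4, for skin-homing chemokines, rose by 2.52 ± 0.51. Gpr15, a gut-homing receptor, was at 0, 11 and 24.6 CPM in DN and held 1 read in Teff, so the groups overlapped at 0 (adjusted p = 0.00122). Itgb1 (2.04 ± 0.24) and Cd44 (1.47 ± 0.26), both higher on antigen-experienced cells, rose without overlap. S1pr1, the receptor for egress from lymph nodes, did not pass (-0.07 ± 0.17). Ccr7 was lower in each DN library, at 881, 1409.6 and 925 CPM against 1697, 2353 and 1846 CPM, without passing (-0.86 ± 0.35, adjusted p = 0.128), but passed with only the 6 libraries fitted (adjusted p = 0.00318). Gpr183 (EBI2), which guides cells along oxysterols, fell from 242, 376 and 329 CPM in Teff to 137, 171 and 165 CPM in DN (-0.96 ± 0.15, adjusted p = 6.11e-05).

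Among 27 transcription regulators 8 rose, 4 fell and 15 did not pass (median 0.03; 1 and 2 with only the 6 libraries fitted). Maf (2.99 ± 0.40), Nfil3 (3.44 ± 0.51) and Irf4 (1.72 ± 0.26), factors of effector Tregs, rose the most. Irf4 was at 28.4, 66.9 and 41.5 CPM in DN and 15, 10.17 and 14.8 CPM in Teff. Its partner Batf rose by 0.80 ± 0.12. Ikzf1 (Ikaros) fell, against the direction of Ikzf2 and Ikzf4: it was at 364, 317 and 336 CPM against 719, 759 and 699 CPM (-1.06 ± 0.13, adjusted p = 1.33e-06). Runx3 fell by 1.17 ± 0.20. The inhibitors of E proteins moved apart, Id2 falling (-1.38 ± 0.21, adjusted p = 3.03e-05) and Id3 rising (0.90 ± 0.29, adjusted p = 0.0458); the Id3 call passed in 0 of 6 fits, adjusted p up to 0.157 without Teff batch 3. Foxo1, Foxp1, Bach2, Klf2 and Bcl11b did not pass.

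Helper lineage genes rose in 6 of 24 tested cases and none fell (median 0.44; 2 and 0 with only the 6 libraries fitted); Il13, Il17f and Il22 were filtered out. Il1rl1 (ST2), the IL-33 receptor, was at 7.97, 18.8 and 13.7 CPM in DN and 0.136, 0.103 and 0.0679 CPM in Teff (6.89 ± 0.49, adjusted p = 5.80e-11). Gata3, the Th2 factor, was at 173, 171 and 204 CPM against 144, 67.1 and 98.1 CPM (0.90 ± 0.18, adjusted p = 9.16e-04), and Rora rose by 1.64 ± 0.28. Tbx21 (T-bet), the Th1 factor, was low in both groups, at 0.506, 1.6 and 1.62 CPM against 0, 0.206 and 0.0679 CPM, a ratio of 15.6 (5.06 to 78.4) with 3 reads in Teff; its adjusted p was 0.00134. Ifngr1 rose by 1.11 ± 0.12, and Stat3, Stat4 and Stat6 did not pass.

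Cyclic AMP and adenosine genes, which follow the ectoenzymes, rose in 5 of 20 cases (25%) and fell in 3 (15%), against 8.79% and 3.42% of all genes. The median was 0.61, and 1 rose and 3 fell with only the 6 libraries fitted. P2rx7, the channel opened by extracellular ATP, was at 63.7, 94.2 and 89.6 CPM in DN and 14.7, 12.2 and 10.3 CPM in Teff (2.76 ± 0.35, adjusted p = 2.14e-06). Genes that remove or use adenosine rose as well: Ada, the deaminase, by 1.18 ± 0.33, Adk, the kinase, by 0.70 ± 0.15, and Slc29a1, the nucleoside transporter, by 0.79 ± 0.17. The Ada call passed in 3 of 6 fits, adjusted p up to 0.162 without DN batch 1. On the side of cyclic AMP the phosphodiesterases Pde7a (-2.38 ± 0.47, adjusted p = 7.67e-04) and Pde4b (-0.77 ± 0.21, adjusted p = 0.0160; passed in 4 of 6 fits, adjusted p up to 0.124 without DN batch 1) fell along with Pde3b, and so did the cyclase Adcy7 (-1.12 ± 0.13, adjusted p = 5.13e-07). Adora2a, the adenosine receptor of T cells, was at 5.88, 19.5 and 8.15 CPM against 4.02, 9.76 and 6.18 CPM and did not pass (0.71 ± 0.47).

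In the Bcl2 family 7 of 16 tested genes rose and none fell (median 0.70; 3 and 0 with only the 6 libraries fitted, and 1 fell without DN batch 2). Bcl2, the survival protein, was at 329.7, 266 and 308 CPM in DN and 104, 84.3 and 114 CPM in Teff (1.61 ± 0.38, adjusted p = 0.00580), and Mcl1, on which Tregs depend, at 263, 215 and 237 CPM against 167, 139.6 and 149.5 CPM (0.68 ± 0.09, adjusted p = 4.22e-06). Bcl2a1b rose by 1.94 ± 0.21 and Bcl2a1d by 1.54 ± 0.30; these copies are near-identical, so how reads were divided between them is uncertain. Pro-apoptotic Bid and Bad rose by 0.96 ± 0.28 and 0.73 ± 0.22, with overlapping groups. Bid passed in 3 of 6 fits, adjusted p up to 0.159 without Teff batch 1, and Bad passed in 3 of 6 fits, adjusted p up to 0.172 without Teff batch 1. Bcl2l11 (Bim), a trigger of T cell death, did not pass (0.30 ± 0.38), nor did Bax (0.20 ± 0.13).

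Proliferation genes rose in 10 of 32 cases, none fell, and the count moved widely with left-out libraries. Summed over the list the DN libraries held 1736, 1619 and 1369.5 CPM and the Teff libraries 749, 1308 and 796 CPM. Mki67, which encodes the Ki-67 protein of cycling cells, was at 36, 23.6 and 22.1 CPM in DN and 0.409, 17.8 and 0.204 CPM in Teff (2.57 ± 0.74, adjusted p = 0.0278; passed in 3 of 6 fits, adjusted p up to 0.119 without DN batch 1). Top2a, the mitotic topoisomerase, was at 84.5, 29.4 and 45.3 CPM against 3.75, 46.8 and 1.9 CPM and did not pass (1.92 ± 0.77, adjusted p = 0.117). Without Teff batch 2, 19 of the 32 rose, Top2a among them, and 23 rose without both libraries of batch 2. Without DN batch 1, 5 rose, without Teff batch 3, 6, and with only the 6 libraries fitted, 4. The part of Teff batch 2 in the other results was not tested beyond leaving it out.

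Some members did not share that pattern. Bub1, a spindle checkpoint kinase, was at 18.1, 5.87 and 5.76 CPM in DN and 0, 0.206 and 0.0679 CPM in Teff, low in Teff batch 2 as in the others, a ratio of 136 (46.1 to 659.9) with an adjusted p of 1.92e-06. Tk1 and Rrm2, which make DNA precursors, were at 20.8, 21.1 and 16 and 40.3, 30.9 and 14.6 CPM in DN and at 0.273, 0.617 and 1.83 and 6.0, 5.04 and 4.01 CPM in Teff, and rose by 4.41 ± 0.45 and 2.56 ± 0.50. Of the replicative helicase Mcm6 rose (0.91 ± 0.15, adjusted p = 1.13e-04), while Mcm2, Mcm3, Mcm4, Mcm5 and Mcm7 did not pass.

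**Figure D4:**
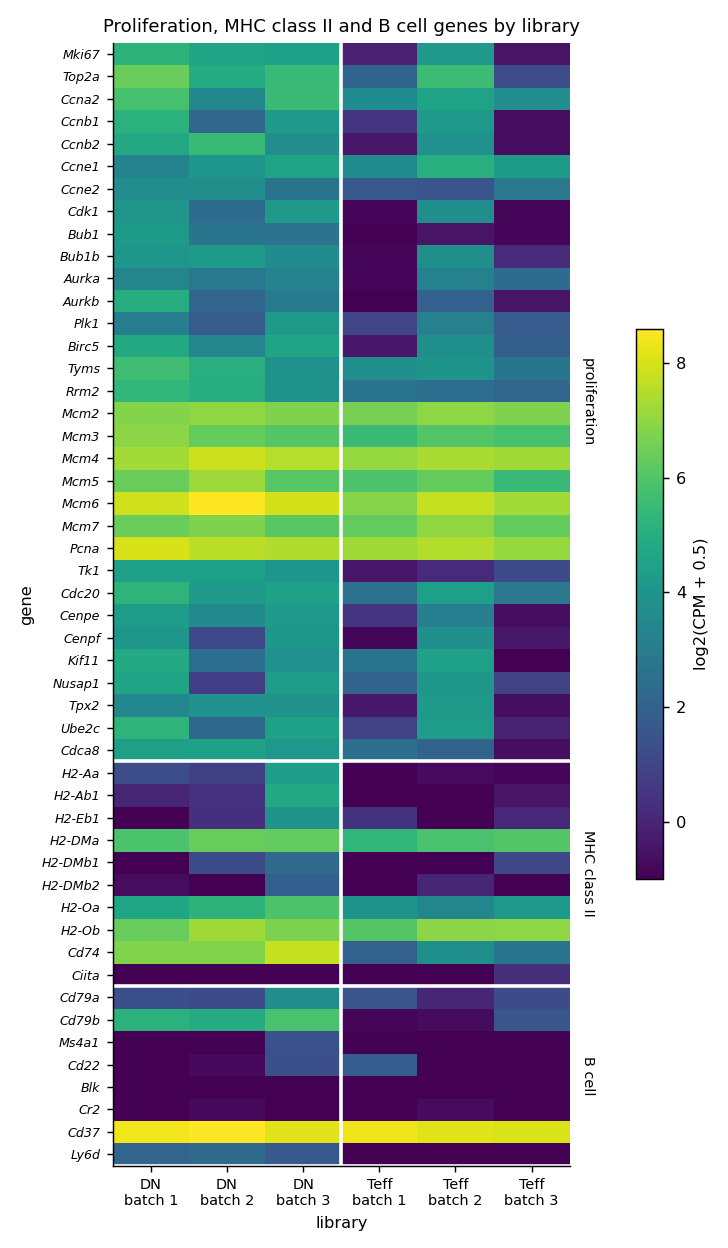
Level of proliferation genes, MHC class II genes and tested B cell markers in each of the 6 libraries, as log2(CPM + 0.5) by colour (dark is low, yellow is high). Teff batch 2 resembles DN for Mki67, Top2a and Tpx2, and DN batch 3 alone is high for H2-Aa, H2-Ab1 and H2-Eb1, whereas Cd74 and Cd79b are high in all 3 DN libraries.

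MHC class II genes, the mark of B cells and antigen-presenting cells, rose in 4 of 10 cases. Cd74, the invariant chain, was at 108, 109 and 215 CPM in DN and 3.41, 13.4 and 5.91 CPM in Teff (4.27 ± 0.37, adjusted p = 2.44e-08), and every DN library lay above Teff. The chains it guides differed between batches. H2-Aa was at 1.9, 1.24 and 19.5 CPM and H2-Ab1 at 0.506, 0.800 and 26.9 CPM in DN, high only in batch 3, with 2 and 3 reads in Teff. Both rose with all libraries (adjusted p = 0.00631 and 0.0410). With 1 library left out H2-Aa passed in 5 of 6 fits, adjusted p up to 0.0676 without DN batch 3, and H2-Ab1 passed in 2 of 6 fits, adjusted p up to 0.509 without DN batch 3. Without DN batch 3, 2 genes of the list rose. With only the 6 libraries fitted 1 of the list rose, Cd74. H2-Oa rose by 1.53 ± 0.32 and passed in all 6 fits that left out 1 library. Ciita, the master regulator of class II, had no read in DN. Summed over the list the range was 274 to 525 CPM in DN and 122 to 216 CPM in Teff.

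B cell markers rose in 2 of 8 tested cases, as they did without DN batch 3, and in 1 without any other single library. Cd79b, part of the B cell receptor, was at 35, 29.2 and 57.3 CPM in DN and 0.0682, 0.103 and 2.44 CPM in Teff (5.45 ± 0.63, adjusted p = 7.75e-07, and 5.66e-06 without DN batch 3). Its partner Cd79a was at 2.02, 1.78 and 12.6 CPM against 2.39, 0.514 and 1.76 CPM and did not pass (1.93 ± 0.89). Ly6d was at 3.86, 4.53 and 2.72 CPM in DN without a read in Teff (adjusted p = 0.0373, passed in 1 of 6 fits, adjusted p up to 0.121 without Teff batch 3). The defining markers Pax5 and Ebf1 were at 0 in all 6 libraries, and Ms4a1 and Fcer2a were at 2.20 and 8.80 CPM in DN batch 3 and near 0 elsewhere. The summed B cell markers were 369 to 419 CPM in DN and 271 to 334 CPM in Teff, most of it Cd37, which T cells express as well.

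Markers of other cells were few, and the share of myeloid genes that rose, 1 of 10, was near the 8.79% of all genes. Of the myeloid list 1 of 10 tested genes rose (Cst3, 0.59 ± 0.10; adjusted p = 1.43e-04, and 2.06e-04 without DN batch 3), Csf1r, Emr1, Siglech, S100a8 and S100a9 were at 0 in all 6 libraries, and Lyz2 was at 3.56 CPM in DN batch 3 alone; the sums were 131 to 164 CPM and 89.7 to 109 CPM. NK cell markers summed to 0 to 3.82 CPM in DN and 17.1 to 30.1 CPM in Teff, where Klrd1 (CD94) was at 24.4, 14.4 and 26.2 CPM (-5.30 ± 2.10, adjusted p = 0.120, or 0.0450 with only the 6 libraries fitted; it also passed without DN batch 1), while Ncr1, Klra8 and Klre1 were at 0. Of the stromal and epithelial list only Epcam rose (3.35 ± 0.45, adjusted p = 4.39e-06), and the sums of 174 to 301 CPM and 247 to 275 CPM were mostly Pecam1. Erythroid and platelet markers stayed at or below 3.19 CPM in sum, plasma cell markers at or below 2.31 CPM and the counted gamma delta and innate markers at or below 0.103 CPM.

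T cell markers placed the samples as follows. CD4 T cell markers summed to 4679 to 5298 CPM in DN and 5075 to 5854 CPM in Teff, and 3 of 7 fell: Cd4, Cd3e and Thy1 (passed in 2 of 6 fits, adjusted p up to 0.314 without Teff batch 1). Of the 7, 1 fell without DN batch 1, 2 or 3 or without Teff batch 1, and none with only the 6 libraries fitted. The CD8 list, carried by Cd8b1, summed to 25.4 to 29.6 CPM and 30.6 to 43.2 CPM, and neither gene passed. Naive markers summed to 3302 to 4693 CPM in DN and 5950 to 7120 CPM in Teff, with Lef1, Tcf7 and Dapl1 falling. Memory and cytotoxic markers summed to 226 to 391 CPM and 120.2 to 134 CPM, and 4 of 10 rose, though none with only the 6 libraries fitted, among them Nkg7 (3.72 ± 0.56), a granule protein, and S100a4 (2.18 ± 0.43). How far these markers take part in the differences above was not tested.

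The metabolic, interferon and MHC class I lists differed in their shares against the 8.79% of all genes that rose. The shares that rose were 17.6% in glycolysis, 5.88% in cholesterol synthesis, 11.5% in interferon response and 27.3% in MHC class I presentation. In interferon response 3.85% fell, against 3.42% of all genes. Of 17 glycolysis genes 3 rose and none fell (median 0.18; 0 and 0 with only the 6 libraries fitted; 1 fell without Teff batch 1, and also without Teff batch 3), led by the glucose transporter Slc2a3 (1.16 ± 0.28, adjusted p = 0.00612), while Ldha was at 1320.0, 1476 and 1301 CPM against 1306, 1474 and 1203 CPM (0.07 ± 0.11). Of 17 cholesterol synthesis genes only Mvd rose (0.74 ± 0.24, adjusted p = 0.0418, passed in 2 of 6 fits, adjusted p up to 0.197 without DN batch 3; median 0.10; 0 and 0 with only the 6 libraries fitted). Of 26 interferon response genes 3 rose and 1 fell (median 0.13; 1 and 1 with only the 6 libraries fitted). Gbp3, a guanylate-binding GTPase, was at 49.1, 101 and 92.4 CPM in DN and 13.4, 13.1 and 6.52 CPM in Teff (2.87 ± 0.21, adjusted p = 1.57e-10), Isg20 and Ifi35 rose by 1.23 ± 0.21 and 0.46 ± 0.13 (Ifi35 passed in 2 of 6 fits, adjusted p up to 0.131 without DN batch 1), and Ddx58 (RIG-I) fell by 0.94 ± 0.18. Ifit1, Ifit3, Isg15 and Rsad2, the usual readouts of interferon, did not pass, with differences of -0.10 to 0.05. In MHC class I presentation 3 of 11 tested genes rose (median 0.13; 0 and 0 with only the 6 libraries fitted): H2-K1 (0.30 ± 0.08; passed in 4 of 6 fits, adjusted p up to 0.0656 without Teff batch 1), B2m (0.37 ± 0.09) and the immunoproteasome subunit Psmb8 (0.41 ± 0.09), each by less than 2-fold.

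**Figure D5:**
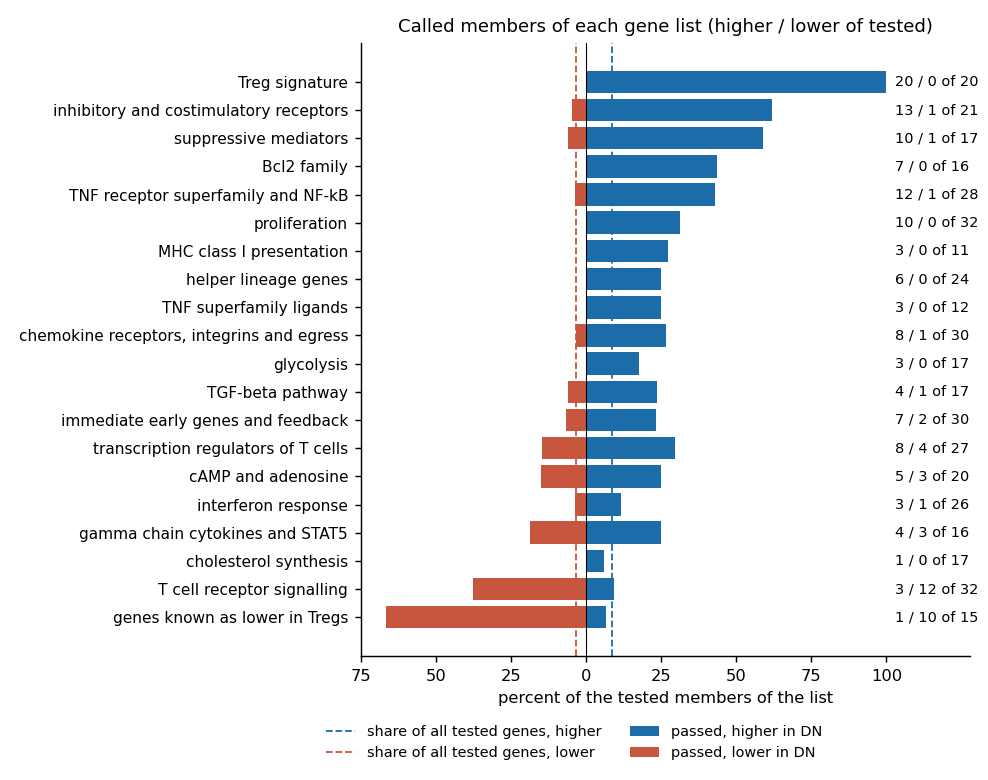
Percent of the tested members of each of 20 gene lists that passed and were higher (blue, to the right) or lower (red, to the left) in DN, with the counts at the right. Dashed lines give the same percentages over all tested genes, 8.79 higher and 3.42 lower; the Treg signature, the inhibitory and costimulatory receptors and the suppressive mediators reach furthest right, and the genes known as lower in Tregs and T cell receptor signalling furthest left.

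With the spread estimated over the 30 Treg-series libraries, some genes that differed clearly in these 6 did not pass. There were 41 genes of at least 10 CPM whose groups did not overlap, whose means differed at least 4-fold and whose adjusted p was above 0.05, and 31 of them were lower in DN. Tgfbr3 (betaglycan), a co-receptor of TGF-beta, was at 13.3, 12.7 and 13.6 CPM in DN and 62, 76.2 and 68.7 CPM in Teff (-2.30 ± 0.85, adjusted p = 0.0807), with an adjusted p of 0.00223 when only the 6 libraries were fitted. Atp8b4, a lipid flippase, was at 3.48, 1.78 and 0.906 CPM against 58.7, 50.9 and 56.4 CPM (-4.55 ± 1.61, adjusted p = 0.0718, or 0.00139 with the 6). Rapgef4 (EPAC2), a cyclic AMP sensor, was at 4.17, 10.05 and 7.38 CPM against 54.9, 64.4 and 67.4 CPM (-3.14 ± 1.08, adjusted p = 0.0601, or 0.00173 with the 6). These 3 were chosen after their values were seen. Most of the 41 did not pass with only the 6 libraries fitted either, among them Cxcr5 (adjusted p = 0.152), Unc93b1 (0.312) and Lypd6b (0.0852). With the 6 libraries alone 438 genes passed, 269 higher and 169 lower in DN, and 29 of them, 25 of which were lower, had not passed with all 30.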

How the data were processed

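Raw counts per gene were deposited by the authors, who per the submitters' processing notes used STAR, featureCounts (Subread), limma and mm10; no versions were given in the sources used here, nor whether counting used strand. A deposited table of log2 values, filtered and normalized by the authors, served an alternative. No column was left without a sample (0). Counts of all 30 Treg-series libraries (10 groups, 3 batches) were fitted with edgeR 4.0.16 in R 4.3.3: TMM scaling, filterByExpr, batch as block, robust quasi-likelihood test of naive DN minus naive Teff, Benjamini-Hochberg threshold 0.05. CPM used raw library totals. The standard error is the fold change over the root of F. The labels call the number that pairs the samples a batch; deviations of same-batch libraries correlated at 0.0987, 0.184 and 0.0665. The main fit was also run on simulated counts with planted changes. Those counts held no batch effects and no spread particular to a gene, so the run does not cover either. Alternatives used limma 3.58.1, DESeq2 1.42.0, other scalings, filters, sample sets and left-out libraries. Named were genes with a mean of at least 10 CPM in the higher group and 1 sign in all 3 batches, 15 per direction by fold change and 5 by p, besides list members. Members and lists were chosen with earlier results of these data known. Some list members are counted but not named here. Overlapping, antisense and near-identical genes cannot be told apart by these counts.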

Additional observations from a re-analysis of the deposited data

How the results depend on the processing

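Of the 1575 calls, 770 passed in all 6 fits that left out 1 library and 520 in all 9 that left out a library or a batch. Over those 9 fits the calls numbered 850 to 1472, with 636 to 1131 higher and 214 to 341 lower in DN. Without DN batch 1 there were 264 falls, and without batches 1, 2 and 3 there were 262, 230 and 214. Without the replicate block the 30 libraries gave 857 calls, 705 higher and 152 lower, so that 82.3% were higher against 72% with it. There 5 of the transcription regulators and 5 of the homing receptors rose, 4 T cell receptor signalling genes fell, and 2 TGF-beta genes rose. With only the 6 libraries and the replicate block 438 genes passed, 269 higher and 169 lower, of which 409 were shared. With the 6 and no replicate block there were 313, 220 and 93; fewer residual degrees of freedom are part of both settings. Other scalings gave 1567 and 1576 calls, no filter 1375, a stricter filter 1492, DESeq2 2053 and limma on the deposited log2 values 1582, and every call shared with the reported fit kept its sign in each setting. DESeq2 and limma called 16 and 19 proliferation genes. Leaving out both libraries of a batch moved other lists: 6 genes known as lower in Tregs fell without batch 2, 5 T cell receptor signalling genes fell without batch 3, 7 TNF receptor and NF-kB genes rose without batch 3, 2 cyclic AMP genes rose without batch 1, and 0 and 1 MHC class I genes rose without batches 1 and 3. Of 157 called genes with a fold change or p in the text, 68 passed under every alternative that tested them. None of the 157 changed sign. Among genes that did not pass, signs turned with left-out libraries: the log2 fold change of Ldha ranged from -0.00840 to 0.14, that of Bcl2l11 from -0.18 to 0.94, Il2rg from -0.16 to 0.26, S1pr1 from -0.14 to 0.016 and Tnfaip3 from -0.43 to 0.30, and Tnfaip3 was 0.016 and 0.031 without the block in 6 and 30 libraries. The log2 fold change of Il2 was 0.19 and 0.20 in those fits and ranged from -7.07 to 0.86 with left-out libraries, the lowest values being those without DN batch 3. The cause was not tested. Depth limits genes under 0.190 to 0.308 CPM, the level of 3 counts.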

Other observations

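Letters of other binding sites were counted in the same 300-base promoter windows as a description, with no test, on both strands. The ETS letters CCGGAA lay in 28.7% of the windows of all tested genes, in 22.0% of the 901 windows of genes higher in DN, in 24.8% of the 367 windows of genes lower in DN and in 15.45% of the 356 windows of genes at least 4-fold higher. The AP-1 letters TGANTCA lay in 4.90%, 6.21%, 2.45% and 8.71% of the same sets, and the STAT letters TTCNNNGAA in 6.93%, 9.54%, 6.27% and 9.27%. The forkhead letters GTAAACA lay in 2.56%, 2.66%, 2.72% and 3.37%, so the share among genes that rose was close to that among genes that fell. In the 39 windows of genes at least 4-fold lower the shares were 10.26% for ETS, 2.56% for AP-1, 10.26% for STAT and 2.56% for forkhead. The low ETS share and the higher STAT share were thus not particular to the large rises.

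Among the 41 genes that lay apart without passing were Cxcr5, the receptor of follicular helper cells, at 20.4, 21.9 and 31.3 CPM in DN and at 13.9, 0.103 and 0.339 CPM in Teff, and Klrd1, at 1.83, 0 and 0 CPM in DN and at 24.4, 14.4 and 26.2 CPM in Teff. Both were chosen after their values were seen.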
